A study of Mus musculus with 36 samples.

Results

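The genes of mevalonate, cholesterol and fatty acid synthesis were followed through mouse bone cell cultures. The set held 33 genes of the 30284 to which transcripts could be assigned, and its members were taken by symbol: 18 enzymes of the mevalonate and sterol branch, 3 regulators (Insig1, Srebf2 and Srebf1), 8 enzymes of fatty acid synthesis and desaturation, and the nuclear receptor LXRα (Nr1h3) with 3 of its targets (Abca1, Abcg1 and Mylip). RNA was sequenced from cells of 20-week-old mice, either wild-type (WT) or lacking the microRNA gene Mir324 (null), with 6 libraries in each of 6 groups and 36 in all. The 2 BMM groups were bone marrow macrophages from flushed marrow, expanded with M-CSF and then kept with M-CSF at 30 ng/mL for 5 days. The 2 OC groups were the same macrophages given RANK-L at 50 ng/mL beside that M-CSF for the last 5 days, the standard stimulus for osteoclast formation. The 2 OB groups grew out of collagenase-treated bone chips and then stayed for 18 days in osteogenic medium with β-glycerophosphate and ascorbic acid. The labels do not say whether libraries of a group came from different mice, so the p-values measure the spread between these libraries, which may in part be technical.

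Mevalonate synthesis starts from acetyl-CoA and leads to farnesyl and geranylgeranyl groups, which anchor small GTPases to membranes, and through squalene and lanosterol to cholesterol. The SREBP transcription factors raise these enzymes when sterols are low and are held back by INSIG proteins, while LXR receptors respond to oxysterols by raising cholesterol exporters. Osteoclasts depend on prenylated GTPases for their cytoskeleton, and nitrogen-containing bisphosphonates act on them by blocking farnesyl diphosphate synthase (Fdps).

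The 2 mature microRNAs that null mice lack are shown because their seeds (bases 2 to 8, in capitals) set which transcripts they can pair with. They are RefSeq sequences (build GRCm38.p6) from chr11:70012060-70012082 and chr11:70012095-70012114, plus strand.
miR-324-5p: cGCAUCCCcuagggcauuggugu
miR-324-3p: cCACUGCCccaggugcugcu
The heptamer GGGATGC, which pairs with the miR-324-5p seed, was in the longest annotated 3′ UTR of 0 of the 33 genes and of 9.17% of 13694 genes with a UTR. The heptamer GGCAGTG, which pairs with the miR-324-3p seed, was in that of 7 of the 33 and of 16.7% of the 13694. Those matches are given with the heptamer in capitals, all in annotated 3′ UTRs (GENCODE M21, GRCm38), so that they can be set beside each gene's values. Acaca holds 2.
Hmgcs1, chr13:119707171-119707195, plus strand: tggccaggtctccgtGGCAGTGctc
Fdft1, chr14:63146040-63146064, minus strand: agggtaaggaaagcaGGCAGTGcgg
Sc5d, chr9:42254848-42254872, minus strand: agctgatacgtgagtGGCAGTGgat
Scd1, chr19:44396769-44396793, minus strand: ctagtgaggttgaggGGCAGTGtct
Scd2, chr19:44304455-44304479, plus strand: tccctcccactgtcgGGCAGTGgac
Acaca, chr11:84400446-84400470, plus strand: ggatggagacaggcaGGCAGTGcag
Acaca, chr11:84401397-84401421, plus strand: gagccacggcacatgGGCAGTGtga
Abca1, chr4:53033753-53033777, minus strand: caattccattacaggGGCAGTGcct
A heptamer is a description of the sequence and not a measured binding site. Of these 7 genes, 1 was higher and 4 were lower in null BMM than in WT BMM, where 52.4% of all genes passed the test described below. In null OC 2 were higher and 4 lower, where 65.5% passed, and in null OB 2 were higher and 0 lower, where 32.5% passed.

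RefSeq promoter windows (250 bases before to 50 after the start, GRCm38.p6) were matched for 26 of the 33 genes, with 32 windows. Of these windows 68.8% held the letters CCAAT on either strand, against 37.4% of all 32851 windows. The E-box CACGTG was in 5 of the 32 (15.6%), in 7.15% of all windows and in 9.67% of the windows of expressed genes. The sterol regulatory element TCACNCCAC, counted as an exact match only, was in 1 window, that of Hmgcs1, and in 1.24% of all windows. No window was matched for Abcg1, Fads1, Fdft1, Fdps, Scd1, Scd2 and Sqle, so these genes were not searched for motifs. Each motif was counted on both strands and apart from the others, whether or not matches overlapped. The windows of Hmgcs1, Idi1 and Insig1 are shown as examples from the 12 genes of the set that rose with RANK-L in WT cells. Other genes that rose, Hsd17b7 and Msmo1 among them, also had windows with CCAAT boxes, but Nr1h3, which rose too, had none. Among genes that fell with RANK-L in WT cells, Dhcr7, Ggps1, Tm7sf2 and Mylip had windows with CCAAT boxes. Those of Abca1, Elovl6 and Fads2, which also fell, held none. The CCAAT box was thus not limited to genes that rose. Capitals mark the motifs: the sterol element in Hmgcs1, the E-box in Insig1, and the CCAAT box, which reads ATTGG where it lies on the other strand.
Hmgcs1, chr13:119690101-119690400, plus strand: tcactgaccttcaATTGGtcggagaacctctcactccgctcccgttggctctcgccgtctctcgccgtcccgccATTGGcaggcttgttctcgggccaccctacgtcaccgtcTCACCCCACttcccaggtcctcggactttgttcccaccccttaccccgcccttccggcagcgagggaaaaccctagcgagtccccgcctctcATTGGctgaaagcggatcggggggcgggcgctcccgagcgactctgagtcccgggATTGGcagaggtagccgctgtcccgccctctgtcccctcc
Idi1, chr13:8885356-8885655, plus strand: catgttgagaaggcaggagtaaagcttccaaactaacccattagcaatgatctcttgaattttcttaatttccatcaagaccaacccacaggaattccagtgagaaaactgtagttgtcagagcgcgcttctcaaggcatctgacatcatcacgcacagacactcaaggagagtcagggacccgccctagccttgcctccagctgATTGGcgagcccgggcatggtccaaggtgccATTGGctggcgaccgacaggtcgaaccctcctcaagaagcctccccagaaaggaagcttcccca
Insig1, chr5:28071162-28071461, plus strand: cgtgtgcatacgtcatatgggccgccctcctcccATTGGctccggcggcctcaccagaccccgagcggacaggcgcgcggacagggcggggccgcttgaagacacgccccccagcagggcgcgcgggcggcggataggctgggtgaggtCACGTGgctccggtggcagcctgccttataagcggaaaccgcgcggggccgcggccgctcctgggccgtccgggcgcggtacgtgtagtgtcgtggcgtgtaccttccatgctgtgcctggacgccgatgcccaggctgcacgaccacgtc

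Libraries held 14118972 to 26347581 estimated counts, and all 33 genes passed the low-count filter in every comparison. Levels are given as CPM, counts relative to library size, with TMM factors computed over all 36 libraries. They were tested with edgeR's quasi-likelihood test, with Benjamini-Hochberg adjustment across every gene a comparison tested and a threshold of 0.05. Changes are log2 fold changes with their standard error (SE). The labelled cell types were checked against markers. Summed TPM (transcript abundance per length) of 8 osteoclast genes was 30995.7 to 35343.1 in WT OC but 233.5 to 568.9 in null OC, where Calcr was at or under 3 counts in every library. Of these 8 genes 7 were above 3 counts in null OC, and their sum there was above all libraries of null BMM (158.9 to 202.9) and WT BMM (63.3 to 82.2) but far below WT OC. The sum of 6 macrophage genes was 6045.5 to 7729.1 TPM in null OC, against 4632.6 to 5527.9 in WT OC. OB libraries held osteoblast transcripts together with macrophage transcripts (2101.4 to 3208.8 TPM) and osteoclast transcripts (4090.0 to 8072.0 TPM). Of 8 adipocyte markers Plin1, Cidec, Lep and Cfd were at or under 3 counts in every library, 2 to 4 were above 3 counts depending on the group, and the sums were 10.27 to 41.92 TPM over all libraries. In such bulk cultures, fewer cells of a type and less RNA per cell cannot be told apart, and this touches every result below.

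Several genes share sequence or exons with others, and whether strand entered the read assignment is not given in the labels. Of the 31-base sequences of the main Fdps transcript, 72.6% also occur in other genes, among them pseudogenes, and 22.2% of those of Idi1 do. Fdft1 overlaps the highly expressed Ctsb over 771 bases on the opposite strand, Ggps1 overlaps Arid4b over 257 bases, and Tm7sf2 shares 532 bases with Vps51 on the same strand. The values of Fdps, Idi1, Fdft1 and Ggps1 are uncertain for that reason. The copy that shares most with Fdps, Gm3571, averaged 0.037 to 0.096 CPM by group, and that of Idi1, Gm13502, averaged 0.74 to 2.41. Of the 31-base sequences of the main Tm7sf2 transcript 0.0% occur in other genes, and the part of the Vps51 overlap in its values was not tested. Scd1 and Scd2 share 8.2% and 6.3% of their 31-base sequences with other genes, mainly Scd paralogs.

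The 18 enzymes of the sterol branch summed to 602.4 to 684.3 TPM in WT BMM and 781.7 to 877.9 in WT OC, where every library was above all of WT BMM, and to 540.8 to 690.2 in null OC. The 8 fatty acid genes summed to 179.4 to 194.0 TPM in WT BMM, 105.0 to 142.5 in null BMM, 182.0 to 227.1 in WT OC and 99.27 to 147.7 in null OC. They reached 213.7 to 264.1 TPM in WT OB and 281.9 to 363.4 in null OB. Scd2 alone held 80.3 to 90.2 TPM of this sum in WT OB and 101 to 155 in null OB, against 10.1 to 18.7 in WT BMM. The sum is thus not a level shared by all 8 genes. Per transcript length, the highest group means were those of Msmo1, a sterol C4-methyl oxidase, at 187 ± 4.78 TPM (SD, n = 6) in WT OC, and of Fdps, at 141 ± 33.4 TPM in null OB. The desaturase Scd1 was under 1 TPM on average in the BMM and OC groups and at 11.0 ± 1.14 TPM in WT OB. The heatmap of all libraries shows these levels gene by gene.

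**Figure D1:**
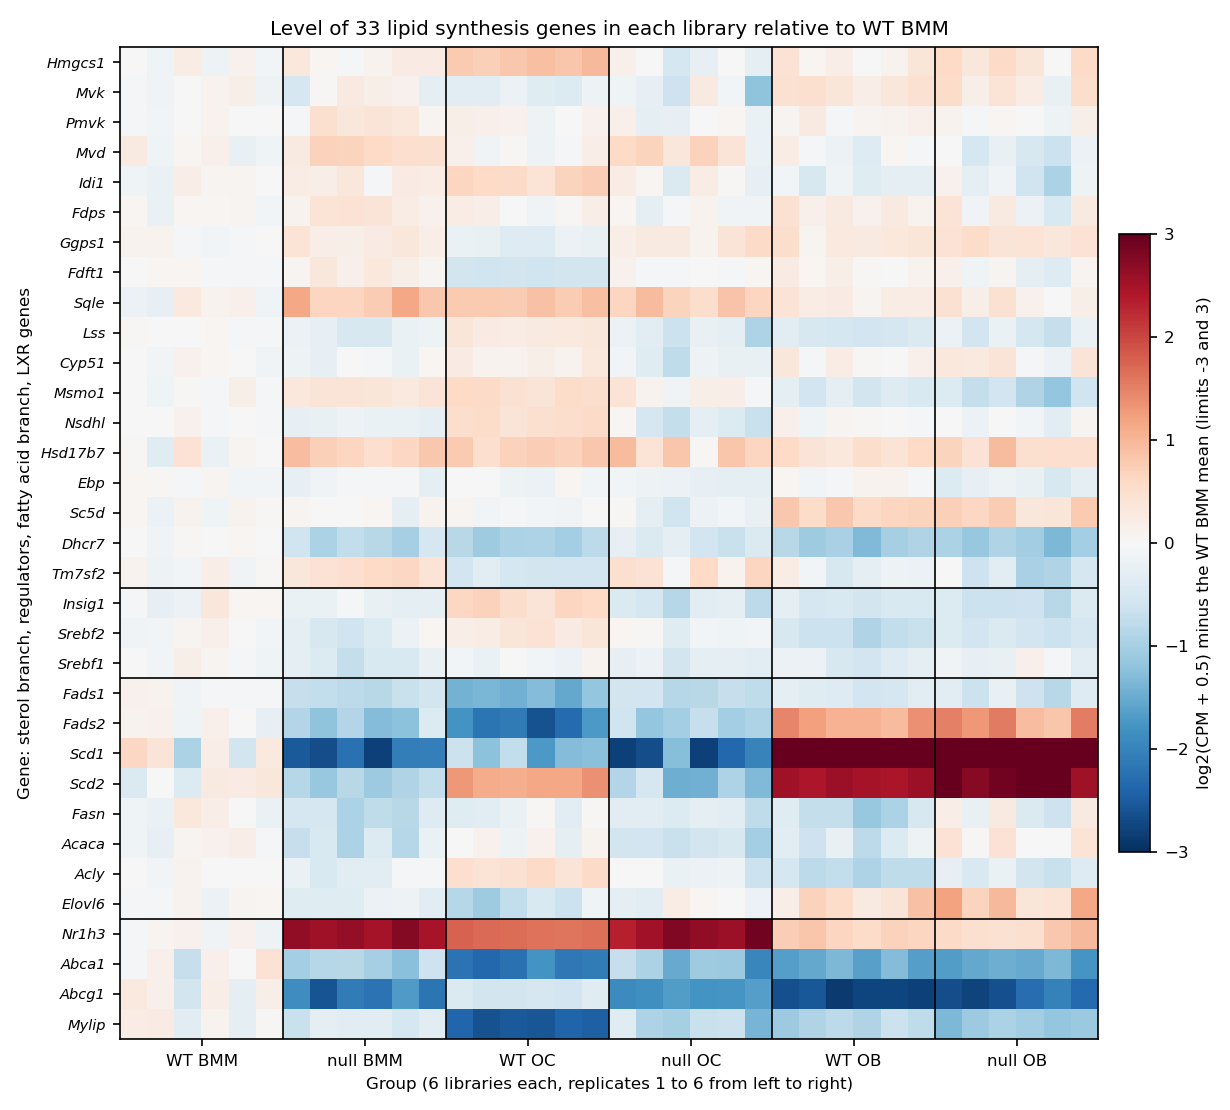
Rows are the 33 genes (sterol branch, regulators, fatty acid branch, LXR genes, divided by lines) and columns are the 36 libraries by group. Colour is log2(CPM + 0.5) minus the WT BMM mean, limited to -3 and 3. Nr1h3 is red in null BMM, WT OC and null OC, and Scd1 and Scd2 are dark red in both OB groups.

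RANK-L in WT cells (WT OC against WT BMM) changed 23 of the 33 genes, 12 upward and 11 downward, in a comparison where 60.5% of 12671 genes passed the test, 30.4% upward and 30.1% downward. The 3 parts of the set did not move as a block. In the sterol branch 7 of 18 rose and 4 fell, with a median change of 0.08. Of the fatty acid genes 2 of 8 rose and 4 fell, with a median of -0.44. Of the LXR genes the receptor rose and its 3 targets fell, with a median of -1.36. The median over all genes tested was 0.00. Each of the 23 calls held in every alternative setting that was run.

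Hmgcs1, which makes the HMG-CoA from which mevalonate is formed, was at 58.8 to 75.9 CPM (median 63.4) in WT BMM and at 107 to 128 (median 116) in WT OC. Its change was 0.83 (SE 0.09, adjusted p 1.24e-08), and the lowest WT OC library was above the highest WT BMM library. Squalene epoxidase (Sqle) went from 53.0 to 76.8 CPM (median 62.2) to 107 to 117 (median 108), a change of 0.80 (SE 0.10, adjusted p 9.86e-08), again without overlap. Isopentenyl diphosphate isomerase (Idi1) was at 42.3 to 55.8 CPM (median 49.4) and at 65.1 to 81.5 (median 74.6), a change of 0.61 (SE 0.10, adjusted p 5.59e-06). The sterol enzymes Hsd17b7, Msmo1, Nsdhl and Lss rose by 0.70, 0.51, 0.51 and 0.29. Insig1, the feedback regulator of SREBP processing, rose from 75.7 to 114 CPM (median 90.8) to 119 to 147 (median 138), a change of 0.57 (SE 0.09, adjusted p 6.80e-06). Srebf2, the SREBP that mainly serves the sterol branch, rose by 0.30 (SE 0.09, adjusted p 0.00476), and by 0.48 under a length and GC correction, an offset fitted to each library.

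Against these, Dhcr7, which makes cholesterol from its last precursor in the Kandutsch-Russell route, fell from 49.2 to 55.9 CPM (median 53.8) to 25.1 to 30.9 (median 27.5). Its change was -0.94 (SE 0.09, adjusted p 2.77e-10) and the groups were apart. The squalene synthase gene Fdft1 fell by 0.58 on the log2 scale (SE 0.06, adjusted p 8.87e-10), the sterol reductase gene Tm7sf2 by 0.56 (SE 0.12, adjusted p 0.00015) and the geranylgeranyl diphosphate synthase gene Ggps1 by 0.28 (SE 0.07, adjusted p 0.00224). The overlapping gene Ctsb averaged 31789 CPM in WT BMM and 8539 in WT OC, and Vps51 averaged 64.9 and 49.3. Their part in the values of Fdft1 and Tm7sf2 was not tested. Mvk, Pmvk, Mvd, Fdps, Cyp51, Ebp and Sc5d did not pass, with changes from -0.31 for Mvk to 0.17 for Cyp51.

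Both desaturases of polyunsaturated fatty acids fell with RANK-L in WT cells. Fads2, the delta-6 desaturase, was at 10.2 to 13.6 CPM (median 12.5) in WT BMM and at 1.56 to 3.29 (median 2.32) in WT OC, a change of -2.31 (SE 0.18, adjusted p 8.63e-12). Fads1, the delta-5 desaturase, was at 127 to 150 CPM (median 133) and at 46.7 to 60.7 (median 51.8), a change of -1.38 (SE 0.07, adjusted p 1.20e-15). Neither gene's groups overlapped. The 2 stearoyl-CoA desaturases, which make monounsaturated fatty acids, moved in opposite directions. Scd2 rose from 39.7 to 68.7 CPM (median 59.3) to 116 to 141 (median 121), a change of 1.17 (SE 0.15, adjusted p 1.06e-07). Scd1, at low counts, fell from 1.30 to 4.86 CPM (median 3.64) to 0.557 to 1.74 (median 0.981), a change of -1.51 (SE 0.51, adjusted p 0.0116), and its groups overlapped. The citrate lyase Acly, which supplies cytosolic acetyl-CoA, rose by 0.48 (SE 0.08, adjusted p 1.63e-05), and the elongase Elovl6 fell by 0.69 (SE 0.15, adjusted p 0.000226). Fatty acid synthase (Fasn) and acetyl-CoA carboxylase (Acaca) did not pass, with changes of -0.20 (SE 0.11, adjusted p 0.121) and -0.02 (SE 0.12, adjusted p 0.914).

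LXRα (Nr1h3) was at 6.50 to 8.04 CPM (median 7.46) in WT BMM and at 23.3 to 26.4 (median 24.5) in WT OC, a change of 1.73 (SE 0.09, adjusted p 1.11e-15). Mylip, the IDOL ubiquitin ligase that removes lipoprotein receptors, fell from 36.7 to 54.2 CPM (median 48.2) to 7.10 to 8.47 (median 7.77), a change of -2.58 (SE 0.14, adjusted p 1.40e-15). The cholesterol exporter Abca1 fell from 142 to 310 CPM (median 243) to 44.6 to 66.0 (median 50.3), a change of -2.18 (SE 0.18, adjusted p 1.04e-10). For these 3 genes no library of either group reached the range of the other. The exporter Abcg1 fell from 203 to 367 CPM (median 333) to 200 to 231 (median 205), a change of -0.53 (SE 0.12, adjusted p 0.000536), with overlapping groups.

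In null cells 1 of the 33 genes rose with RANK-L and 7 fell, where 12.9% of 12671 genes passed (6.77% upward, 6.08% downward). Osteoclast markers rose in the same comparison in 6 of 8, among them Ctsk by 4.34 (SE 0.37, adjusted p 1.07e-06) and Acp5 by 1.31 (SE 0.15, adjusted p 2.42e-05), to sums far below those of WT OC, and their part in the results was not tested. None of the 8 fatty acid genes passed, at a median change of 0.07. Dhcr7 rose from 26.6 to 37.2 CPM (median 30.6) to 33.5 to 44.8 (median 39.0), a change of 0.34 (SE 0.09, adjusted p 0.0137), and Fdps fell from 92.2 to 116 CPM (median 106) to 70.7 to 91.7 (median 81.4), a change of -0.34 (SE 0.08, adjusted p 0.00706). The groups overlapped for Dhcr7 and were apart for Fdps, and both calls held in every setting run. The other 6 changes were Hmgcs1 -0.29, Pmvk -0.34, Fdft1 -0.19, Msmo1 -0.22, Insig1 -0.32 and Mylip -0.38, and each call was lost in at least 1 setting. In 24 fits that each left out 1 library, the call of Mylip was lost in 14, some of them without a WT library. Hmgcs1 and Msmo1 lost theirs in 8, Insig1 in 6, Fdft1 in 4 and Pmvk in 1. Without null BMM replicate 2, adjusted p was 0.0548 for Hmgcs1, 0.0598 for Pmvk, 0.0828 for Fdft1, 0.0797 for Msmo1, 0.057 for Insig1 and 0.1 for Mylip. Without null OC replicate 3 it was 0.0976, 0.0554, 0.0978, 0.0768 and 0.094 for the same genes apart from Pmvk. The number of genes of the set called lower was 1 and 2 without these libraries, 2 without null BMM replicate 4, 3 without null OC replicate 2 or 6, and 4 without null BMM replicate 3 or 6 or null OC replicate 4. Without null BMM replicate 5 or 6, 2 were called higher.

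The difference between the responses was tested as an interaction (null response minus WT response). It passed for 25 of the 33 genes, 11 upward and 14 downward, where 51.4% of 12671 genes passed, 25.3% upward and 26.1% downward. Of the sterol branch 14 of 18 passed. The WT response of Hmgcs1 exceeded the null response by 1.12 on the log2 scale (interaction -1.12, SE 0.13, adjusted p 5.03e-08), and for Sqle, Idi1 and Insig1 the interaction was -0.96 (SE 0.14), -0.80 (SE 0.14) and -0.89 (SE 0.13). It was of the opposite sign for Dhcr7, at 1.28 (SE 0.12, adjusted p 1.14e-09). For the desaturases Fads2 and Fads1 it was 2.38 (SE 0.25) and 1.39 (SE 0.10), and for Mylip, Abca1 and Nr1h3 it was 2.20 (SE 0.18), 1.94 (SE 0.25) and -1.69 (SE 0.12). For Fasn it was 0.44 (SE 0.16, adjusted p 0.0209), 0.36 (adjusted p 0.0512) without WT BMM replicate 3 and 0.27 (adjusted p 0.0776) under the length and GC correction. The WT OC and null OC groups differed in osteoclast markers as given above, and the part of that difference in these interactions was not tested.

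**Figure D2:**
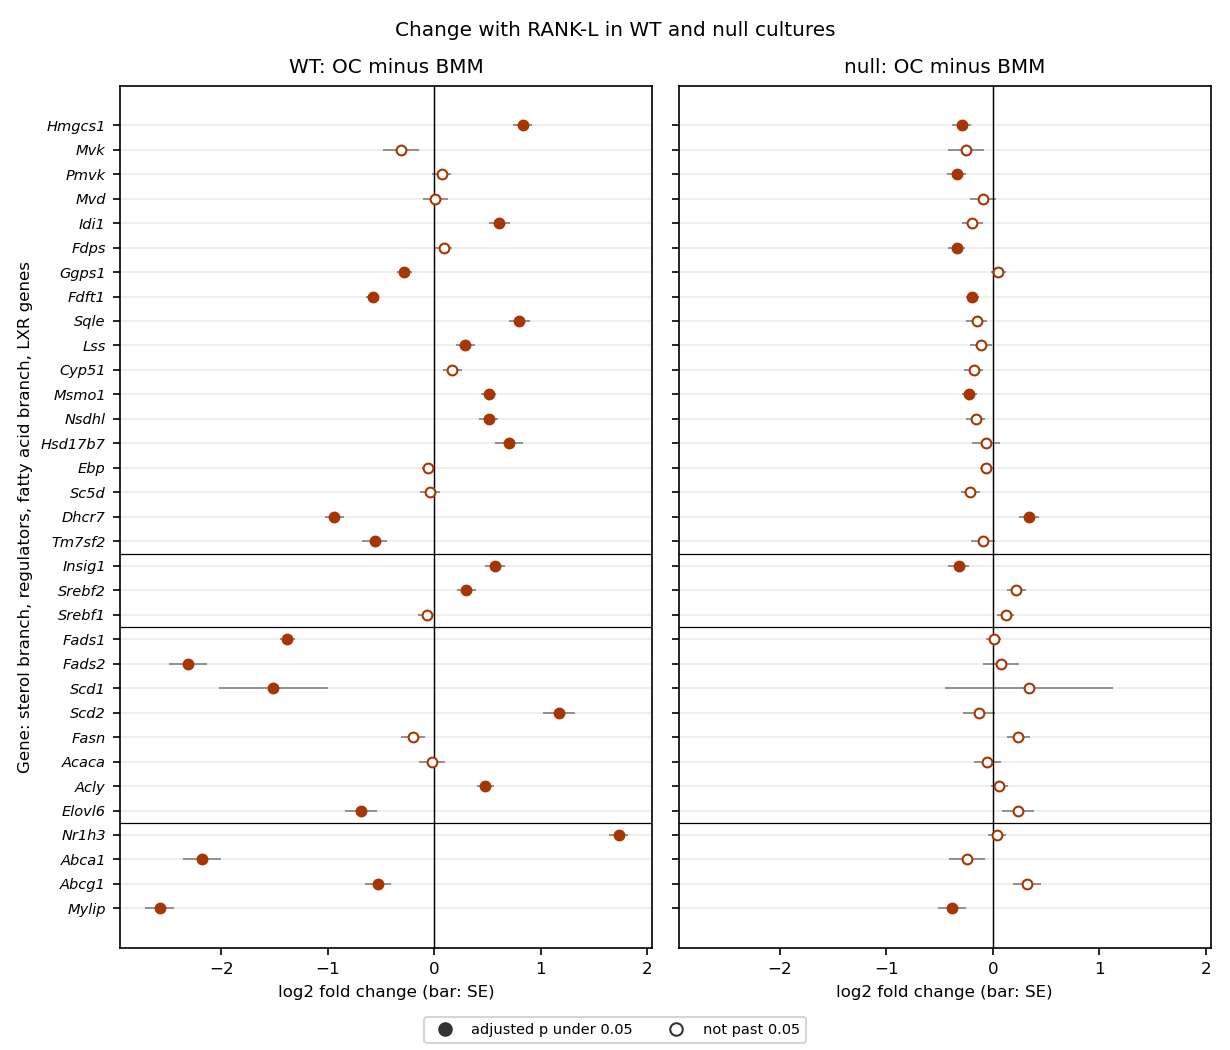
Points are log2 fold changes of OC against BMM cultures for the 33 genes, in WT (left) and null (right) on the same axis, with bars of 1 SE. Filled points passed an adjusted p of 0.05: 23 genes in WT and 8 in null, where the points lie between -0.38 and 0.34.

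In BMM without RANK-L, null cells differed from WT in 26 of the 33 genes, 10 higher and 16 lower, where 52.4% of 11935 genes passed, 27.0% higher and 25.3% lower. Of the sterol branch 9 of 18 were higher and 3 lower in null BMM, with a median of 0.20. All 8 fatty acid genes were lower, with a median of -0.68, against a median of 0.02 over all genes. Nr1h3 was higher and its 3 targets were lower. Summed TPM of 8 neutrophil genes was 0.741 to 2.11 in WT BMM and 43.3 to 105 in null BMM, where S100a9, Ngp, Ltf, Mpo, Elane and Retnlg were at or under 3 counts in every library. Macrophage marker sums were 7798.3 to 8484.7 TPM in WT BMM and 6679.0 to 8091.2 in null BMM, and the part of both in the results was not tested.

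Sqle was at 53.0 to 76.8 CPM (median 62.2) in WT BMM and 98.9 to 142 (median 108) in null BMM, a difference of 0.89 (SE 0.12, adjusted p 1.33e-05). Hsd17b7, a sterol ketoreductase, was at 10.2 to 18.1 CPM (median 13.4) and 19.1 to 25.6 (median 21.5), a difference of 0.72 (SE 0.13, adjusted p 0.000174). Neither gene's groups overlapped. Mevalonate diphosphate decarboxylase (Mvd), Tm7sf2 and Msmo1 were higher by 0.55, 0.51 and 0.37, and Pmvk, Fdps, Ggps1 and Fdft1 by 0.21 to 0.29. Dhcr7 was lower, at 26.6 to 37.2 CPM (median 30.6) against 49.2 to 55.9 (median 53.8), a difference of -0.76 (SE 0.09, adjusted p 2.50e-06). Lanosterol synthase (Lss) and Nsdhl were lower, at -0.28 and -0.21. Hmgcs1 did not pass (0.17, SE 0.08, adjusted p 0.099). Srebf1 and Srebf2 were lower by 0.41 and 0.30 on the log2 scale, and Insig1 did not pass (-0.20, SE 0.09, adjusted p 0.0629). Under the length and GC correction Pmvk, Lss, Srebf2 and Fdps stood at 0.13 (adjusted p 0.151), -0.14 (adjusted p 0.0769), -0.19 (adjusted p 0.0299) and 0.17 (adjusted p 0.0226).

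Scd1 was at 1.30 to 4.86 CPM (median 3.64) in WT BMM and at 0.0 to 0.339 (median 0.175) in null BMM, a fitted difference of -4.16 (SE 0.49, adjusted p 3.27e-06) that rests on few counts. Scd2 was at 39.7 to 68.7 CPM (median 59.3) and at 24.2 to 32.3 (median 29.3), a difference of -0.95 (SE 0.14, adjusted p 3.43e-05). Fads2 was at 10.2 to 13.6 CPM (median 12.5) and 4.6 to 9.04 (median 5.65), a difference of -1.0 (SE 0.16, adjusted p 6.66e-05). In all 3 desaturases every null library was below every WT library. Fads1 was lower by 0.70 on the log2 scale (SE 0.07, adjusted p 2.87e-07), Fasn by 0.65 (SE 0.12, adjusted p 0.000228) and Acaca by 0.59 (SE 0.13, adjusted p 0.00145). The smallest of the 8 differences did not hold in every setting. Elovl6 (-0.31, SE 0.11, adjusted p 0.0316) had an adjusted p of 0.0527 to 0.0646 without WT BMM replicate 5 or 6 or null BMM replicate 1, 2 or 3, and 0.153 under the correction. Acly (-0.22, SE 0.08, adjusted p 0.0217) had 0.0518 without null BMM replicate 4 and 0.191 under the correction.

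Nr1h3 was at 6.50 to 8.04 CPM (median 7.46) in WT BMM and 42.7 to 52.5 (median 47.0) in null BMM, a difference of 2.68 (SE 0.09, adjusted p 8.36e-13). Abcg1 was at 203 to 367 CPM (median 333) and 48.9 to 91.2 (median 66.9), a difference of -2.11 (SE 0.17, adjusted p 1.08e-07). For both genes the null libraries were all on 1 side of the WT libraries. Abca1 was lower by 0.95 on the log2 scale (SE 0.15, adjusted p 0.00011), with WT BMM replicate 3 at 142 CPM inside the null range of 96.0 to 149, and Mylip by 0.42 (SE 0.11, adjusted p 0.00371).

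**Figure D3:**
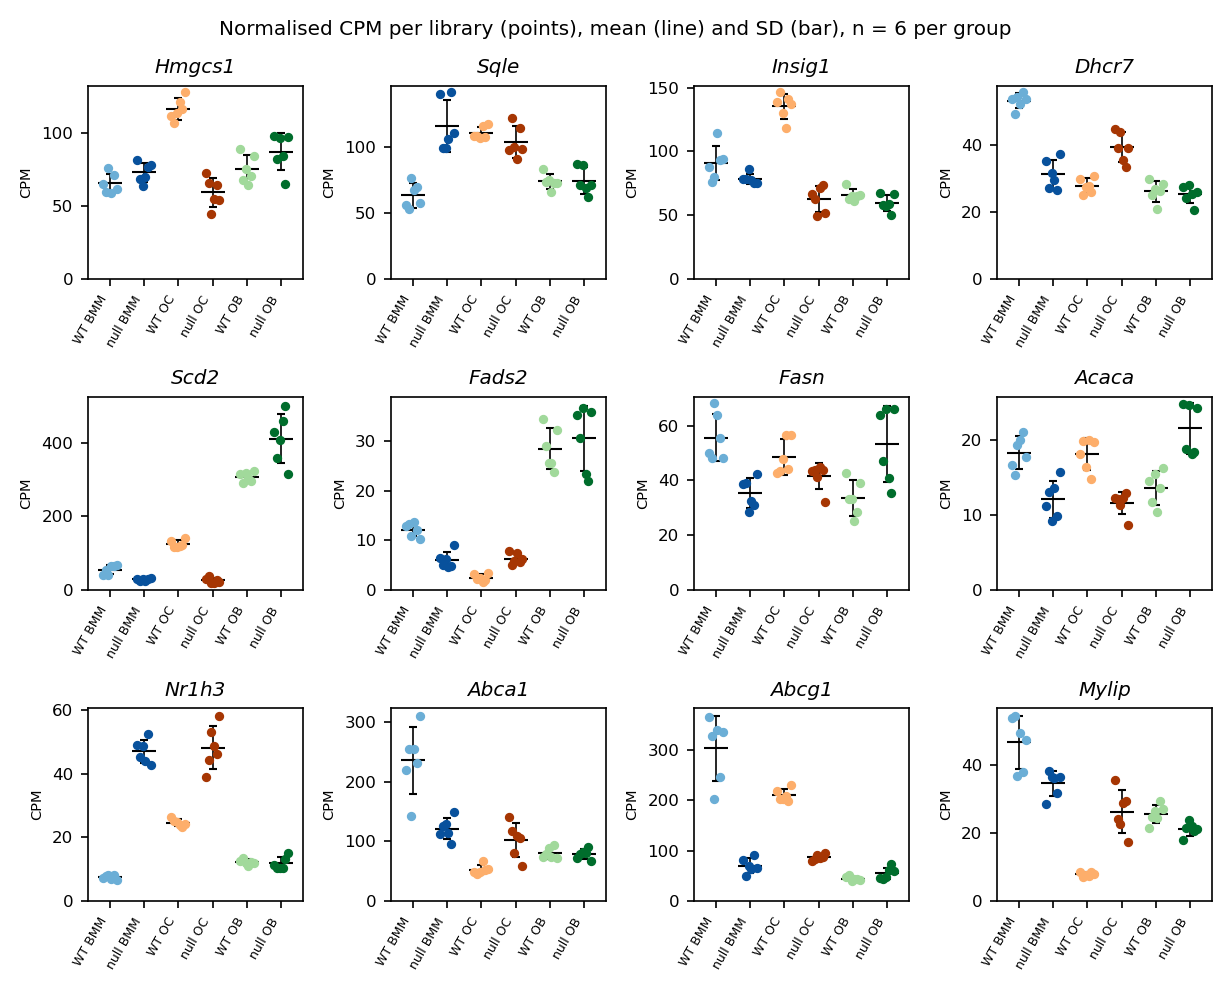
Each panel plots normalised CPM of a gene in the 36 libraries by group, with the mean as a line and the SD as a bar (n = 6), from 0 upward. Hmgcs1 and Insig1 are highest in WT OC, Scd2 and Fads2 are highest in the OB groups, and Nr1h3 is highest in null BMM and null OC.

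In OC cultures null libraries differed from WT in 25 of the 33 genes, 11 higher and 14 lower, where 65.5% of 12129 genes passed, 32.4% higher and 33.1% lower. In the sterol branch 5 of 18 were higher and 6 lower (median -0.14), all 3 regulators were lower (Srebf1 by 0.24 on the log2 scale, and by 0.46 under the length and GC correction), and the fatty acid genes divided into 3 higher and 4 lower (median -0.42). Of the LXR genes 3 were higher and Abcg1 was lower. The median over all genes tested was -0.03. Osteoclast marker sums differed between these groups as given above. Summed TPM of the 8 neutrophil genes was 0.0341 to 2.06 in WT OC and 40.2 to 54.2 in null OC. In null OC, S100a9, Ngp, Ltf, Mpo, Elane and Retnlg were at or under 3 counts in every library. The part of both marker sums in the results was not tested. The OC genotype comparison shares the WT OC and null OC libraries with the RANK-L comparisons, so the values below are not a second measurement.

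Insig1 was at 119 to 147 CPM (median 138) in WT OC and 49.3 to 74.0 (median 64.6) in null OC, a difference of -1.10 (SE 0.09, adjusted p 2.31e-08). Hmgcs1 was at 107 to 128 CPM (median 116) and 44.9 to 72.7 (median 59.5), a difference of -0.96 (SE 0.10, adjusted p 1.44e-07). Nsdhl, a sterol C4 decarboxylase, was at 33.2 to 37.9 CPM (median 36.9) and 15.3 to 26.5 (median 18.4), a difference of -0.90 (SE 0.11, adjusted p 2.62e-06). All 3 genes had every null library below every WT library. Lss, Idi1, Cyp51 and Msmo1 were lower, at -0.69, -0.61, -0.45 and -0.37. On the other side were Tm7sf2 (0.98, SE 0.14, adjusted p 8.31e-06), Ggps1 (0.59, SE 0.08, adjusted p 1.08e-05), Fdft1 (0.59, SE 0.06, adjusted p 1.88e-07) and Dhcr7 (0.51, SE 0.09, adjusted p 6.90e-05). Ctsb, which overlaps Fdft1, averaged 8539 CPM in WT OC and 19921 in null OC, and Vps51, which overlaps Tm7sf2, averaged 49.3 and 65.5. Mvd was higher by 0.44, and under the length and GC correction stood at 0.21 (adjusted p 0.16). Sqle did not pass (-0.08, SE 0.07, adjusted p 0.313).

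Scd2 was at 116 to 141 CPM (median 121) in WT OC and 19.3 to 37.8 (median 24.7) in null OC, a difference of -2.26 (SE 0.14, adjusted p 6.53e-10), with no overlap. Acly, Acaca and Scd1 were lower, at -0.65, -0.64 and -2.33, the last from libraries under 2 CPM and at -3.84 with limma-voom. Fads2 was at 1.56 to 3.29 CPM (median 2.32) in WT OC and 5.09 to 7.82 (median 5.95) in null OC, a difference of 1.37 (SE 0.19, adjusted p 9.40e-06). Fads1 and Elovl6 were higher by 0.68 and 0.61, and Fasn did not pass (-0.21, SE 0.10, adjusted p 0.0637). Mylip was at 7.10 to 8.47 CPM (median 7.77) and 17.2 to 35.6 (median 26.3), a difference of 1.76 (SE 0.14, adjusted p 1.27e-08). Abcg1 was at 200 to 231 CPM (median 205) and 78.5 to 94.7 (median 86.5), a difference of -1.27 (SE 0.06, adjusted p 1.09e-11). The 2 genes moved in opposite directions, each with its groups apart. Abca1 and Nr1h3 were both higher by 0.98, and Abca1 in null OC replicate 6 was at 58.8 CPM, inside the WT OC range of 44.6 to 66.0.

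In OB cultures 7 of the 33 genes passed, 4 higher and 3 lower in null, where 32.5% of 13614 genes passed, 15.5% higher and 16.9% lower. The 4 were Fasn, at 25.0 to 42.6 CPM (median 33.2) in WT OB and 35.5 to 66.1 (median 55.5) in null OB (0.66, SE 0.18, adjusted p 0.0126), Acaca (0.65, SE 0.12, adjusted p 0.00101), Scd2 (0.41, SE 0.09, adjusted p 0.00371) and Acly (0.33, SE 0.08, adjusted p 0.00673). Acaca was at 10.3 to 16.3 CPM (median 14.1) in WT OB and 18.2 to 24.9 (median 21.6) in null OB, without overlap, while the Fasn groups overlapped. The 3 lower genes were the sterol isomerase Ebp (-0.32, SE 0.06, adjusted p 0.00163), Msmo1 (-0.29, SE 0.10, adjusted p 0.046) and Mylip (-0.28, SE 0.08, adjusted p 0.0192). Insig1, Srebf1, Srebf2 and 16 of the 18 sterol genes did not pass. Osteoblast marker sums were 17963.5 to 25568.8 TPM in WT OB and 30657.8 to 44171.8 in null OB. Osteoclast sums were 4090.0 to 5143.9 and 5339.3 to 8072.0, macrophage sums were 2764.8 to 3208.8 and 2101.4 to 2483.3, all 3 without overlap, and their part in these differences was not tested.

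None of the 7 OB calls held in every setting. Fold changes of OB went with transcript length over all genes tested (Spearman 0.58 across genes, which are not independent, against -0.20 in BMM and 0.00 in OC), and the 4 higher genes have transcripts of 4331 to 8909 bases. Under the length and GC correction Fasn stood at 0.23 (adjusted p 0.432), Acaca at 0.27 (adjusted p 0.136), Scd2 at 0.17 (adjusted p 0.176) and Acly at 0.18 (adjusted p 0.159). Ebp and Msmo1 stood at -0.16 (adjusted p 0.0839) and -0.17 (adjusted p 0.303). Under it 2 genes of the set passed: Mylip at -0.31 (adjusted p 0.0202), and Abca1, whose transcript is the longest of the set at 10260 bases, at -0.49 (adjusted p 0.00135) against -0.04 (adjusted p 0.782) without it. Without the correction, Mylip lost its call when WT OB replicate 5 was left out (-0.24, adjusted p 0.0502). It also lost it in the single fit of 36 libraries (-0.27, adjusted p 0.0825). Msmo1 lost its call without any of WT OB replicates 1, 3, 4, 5 and 6 or null OB replicates 2, 4 and 5, with adjusted p from 0.0508 to 0.124.

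**Figure D4:**
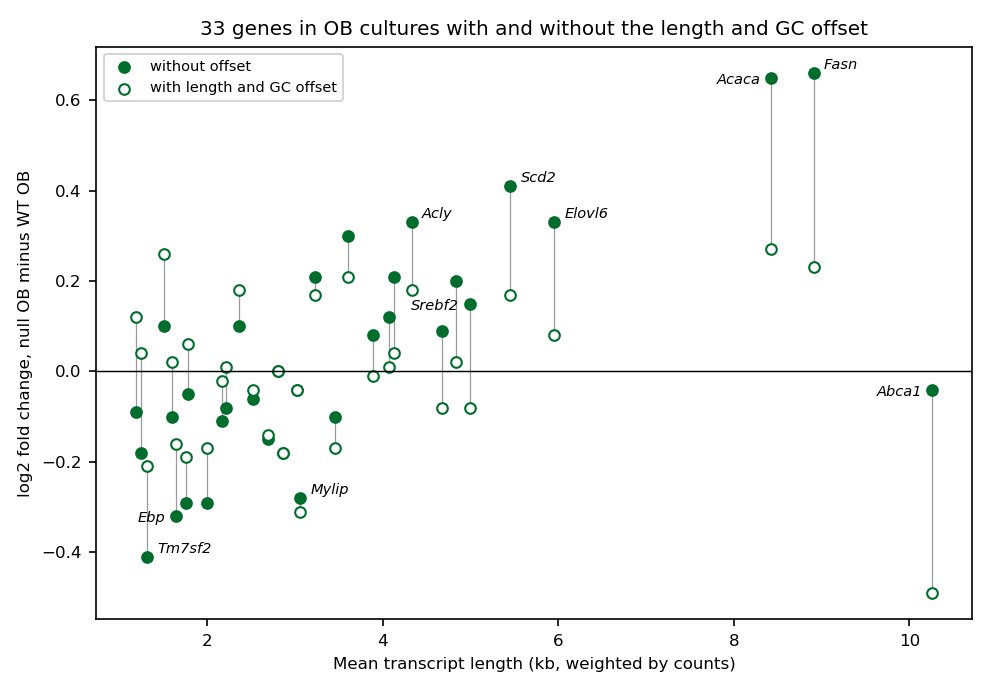
The x axis is the mean transcript length in kb of each of the 33 genes and the y axis the log2 fold change of null OB against WT OB, without (filled) and with (open) the length and GC correction. Fasn and Acaca move from 0.66 and 0.65 to 0.23 and 0.27, and Abca1 from -0.04 to -0.49.

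Set side by side, the genotype differences of the 3 cultures did not follow 1 direction per gene. Between BMM and OC, which have no library in common, 14 of the 33 genes passed in both with the same sign, as did 25.9% of 11709 genes tested in both (among the 14 were Abcg1, Scd1, Scd2, Acaca, Srebf1, Srebf2, Nr1h3, Mvd and Tm7sf2). With opposite signs 7 passed (Abca1, Dhcr7, Elovl6, Fads1, Fads2, Msmo1 and Mylip), as did 11.3% of the 11709 genes. Mvk and Sc5d passed in none of the 3 cultures. The genotype difference in OB departed from that in BMM for 23 of the 33 genes by an interaction test, where 45.8% of 14278 genes passed (21.6% upward, 24.3% downward), and all 8 fatty acid genes were among those with a higher value in OB. For Scd2 this interaction was 1.38 (SE 0.19, adjusted p 2.87e-07), for Fasn 1.32 (SE 0.20, adjusted p 1.32e-06) and for Abcg1 2.42 (SE 0.18, adjusted p 2.45e-13). Under the length and GC correction Fasn stood at 0.78 (adjusted p 0.00112), Acaca at 0.71 (adjusted p 0.000712) and Acly at 0.29 (adjusted p 0.0257), and Elovl6, at 0.66 before it, no longer passed (0.28, adjusted p 0.344). Of the 23 calls 17 held in every setting run, which for this comparison did not include leaving out libraries. Against OC the genotype difference in OB departed for 24 genes, where 55.3% of 14278 passed (27.8% upward, 27.4% downward), with Scd2 at 2.69 (SE 0.19) and Mylip at -2.03 (SE 0.17).

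**Figure D5:**
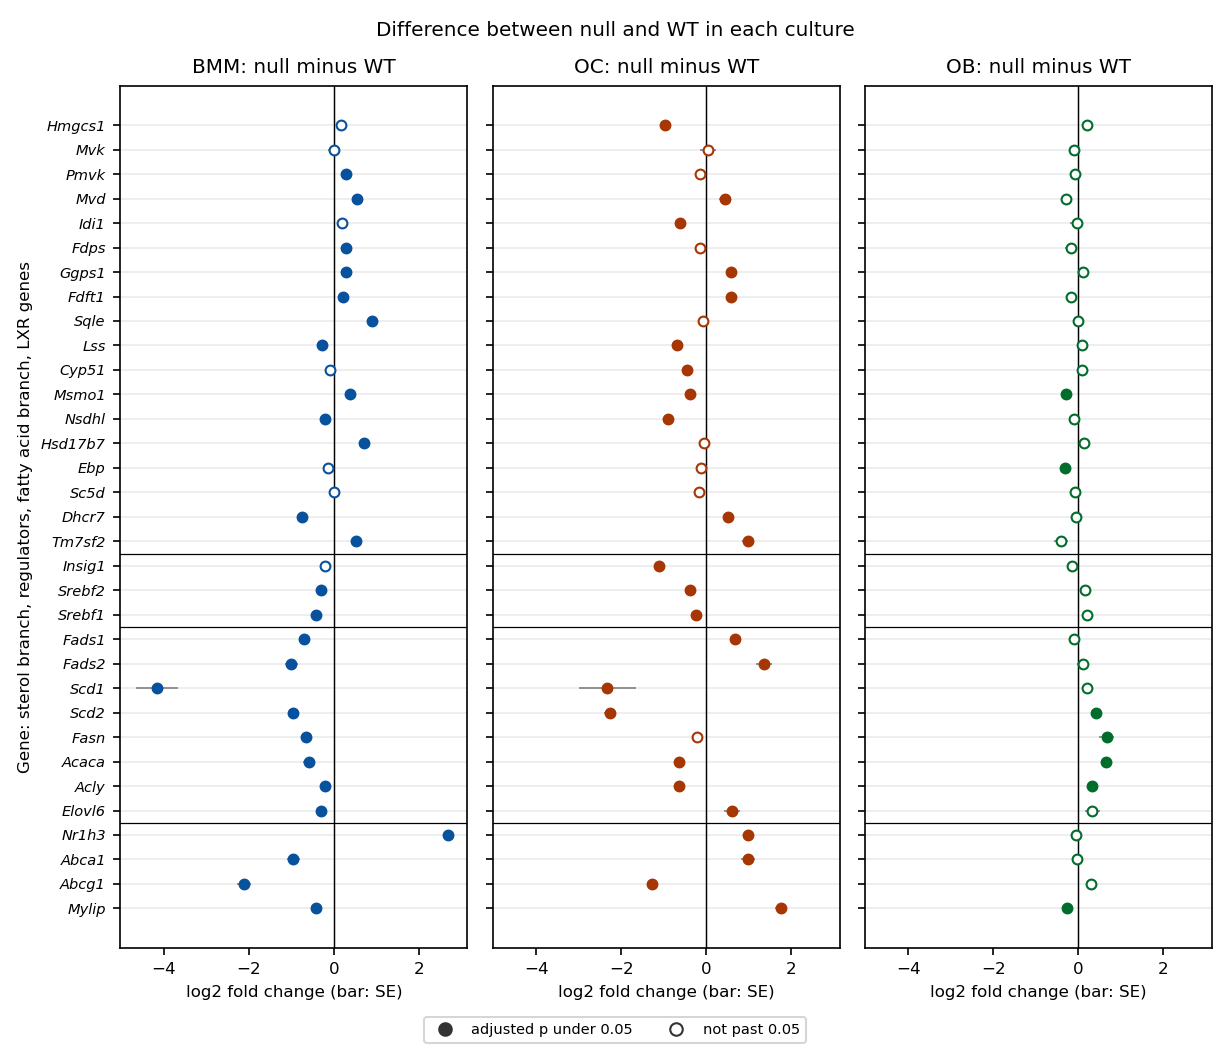
Points are log2 fold changes of null against WT for the 33 genes in BMM, OC and OB cultures on a shared axis, with bars of 1 SE, and filled points passed an adjusted p of 0.05 (26, 25 and 7 genes). The 8 fatty acid genes lie left of 0 in BMM, and Mylip, Abca1, Fads1 and Fads2 lie on opposite sides of 0 in BMM and OC.

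Among WT cultures, OB differed from BMM in 25 of the 33 genes, 11 higher and 14 lower, where 76.8% of 14278 genes passed (41.5% higher, 35.3% lower). It differed from OC in 26, 12 higher and 14 lower, where 77.9% passed (41.3% higher, 36.7% lower). Of the 4 desaturases, Scd1, Scd2 and Fads2 were higher in WT OB than in both other WT cultures. Fads1 was lower than in WT BMM (-0.41, SE 0.08) and higher than in WT OC (0.97, SE 0.08). Scd1 was at 31.9 to 40.5 CPM (median 34.5) in WT OB, 3.45 (SE 0.28) above WT BMM and 4.95 (SE 0.32) above WT OC on the log2 scale. Scd2 was at 292 to 324 CPM (median 310), 2.48 (SE 0.14) above WT BMM and 1.31 (SE 0.13) above WT OC. Fads2 was at 23.8 to 34.3 CPM (median 27.4), 1.23 (SE 0.15) and 3.53 (SE 0.18) above them. Fasn, Acaca and Acly were lower in WT OB than in both, and so were Insig1, Srebf2, Srebf1 and Lss. Under the length and GC correction Acaca no longer passed, at -0.14 (adjusted p 0.26) against BMM and -0.12 (adjusted p 0.35) against OC. Abcg1 was at 40.1 to 50.4 CPM (median 43.3) in WT OB, -2.77 (SE 0.13) relative to WT BMM and -2.24 (SE 0.13) relative to WT OC. Sc5d, the lathosterol desaturase, was at 61.3 to 73.7 CPM (median 65.5) in WT OB and higher than in both, by 0.68 (SE 0.09) and 0.72 (SE 0.09). Macrophage and osteoclast transcripts in the OB libraries, as given above, enter these values, and their part was not tested.

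Neighbouring steps of the pathway were followed through 4 further lists. The cholesterol handling list held 10 genes: those for oxysterol synthesis, LXR partners, storage and lysosomal release, and also Lpcat3 and Arl4c. Of these 10, 8 fell and 1 rose with RANK-L in WT cells, where 30.1% and 30.4% of all genes did, at a median of -1.14. Cholesterol 25-hydroxylase (Ch25h) changed by -2.85 (SE 0.15, adjusted p 2.11e-15), the lysosomal lipase Lipa by -1.08 (SE 0.06, adjusted p 1.71e-15) and Arl4c by -1.80 (SE 0.12, adjusted p 2.62e-13). In null BMM 6 of the 10 were lower and 0 higher, against 25.3% and 27.0% of all genes. In null OC 8 were higher and 2 lower, against 32.4% and 33.1%, with Ch25h at 2.73 (SE 0.13, adjusted p 1.44e-11). In null OB 0 of the 10 were higher and 5 lower, against 15.5% and 16.9%. Of 12 genes that use isoprenoids, 4 rose and 5 fell with RANK-L in WT cells, where 30.4% of all genes rose and 30.1% fell. Between genotypes, 0 of the 12 were higher and 1 lower in null BMM, where 52.4% of all genes passed. In null OC 6 were higher and 4 lower, where 65.5% passed, and in null OB 2 were higher and 1 lower, where 32.5% passed. With RANK-L in WT cells, Pdss1 and Nus1 rose by 1.57 (SE 0.17, adjusted p 3.81e-09) and 0.82 (SE 0.10, adjusted p 1.05e-07). These 2 genes act in coenzyme Q and dolichol synthesis. In that RANK-L comparison the Rab prenyltransferase subunit Rabggta fell by 0.56 on the log2 scale (SE 0.07, adjusted p 7.75e-08).

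A list of 9 further sterol genes held Acat2, Lbr, Cyb5r3, Stard4, Tmem97, Insig2, Scap, Mbtps1 and Mbtps2. Of these, 4 rose and 1 fell with RANK-L in WT cells, where 60.5% of all genes passed by edgeR. In null cells 0 passed, where 12.9% of all genes did. In the same 9 genes, 3 were higher and 3 lower in null BMM and likewise in null OC, with the sterol reductase and lamin receptor Lbr at -0.62 (SE 0.10, adjusted p 0.000118) and -0.82 (SE 0.09, adjusted p 3.60e-07). Of 11 fatty acid supply genes, 10 were tested in BMM, of which 5 were higher and 3 lower in null, where 52.4% of all genes passed. Me1 and Acss2, which supply NADPH and acetyl-CoA, were higher in both null cultures: Me1 by 1.13 (SE 0.10, adjusted p 1.77e-07) in BMM and 1.0 (SE 0.11, adjusted p 5.39e-07) in OC, Acss2 by 1.10 (SE 0.12, adjusted p 1.28e-06) in BMM and 1.30 (SE 0.13, adjusted p 1.01e-07) in OC. Mid1ip1, which promotes acetyl-CoA carboxylase polymerisation, was lower in both, at -1.02 (SE 0.06, adjusted p 1.86e-09) and -1.07 (SE 0.07, adjusted p 7.62e-10). In OB, 0 of the 10 supply genes tested were higher and 1 was lower, where 32.5% of all genes passed. These are the genes next to the fatty acid enzymes, and in null BMM they divided in direction where the 8 enzymes themselves were all lower.

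Within a group, libraries also differed in ways that involved more than 1 gene of the set. In WT BMM, replicate 3 had the lowest values of Abca1 (142 CPM), Abcg1 (203), Mylip (36.7) and Scd1 (1.30) and the highest of Sqle (76.8), Hmgcs1 (75.9), Idi1 (55.8), Hsd17b7 (18.1) and Fasn (68.3). In null OC, replicates 3 and 6 had the lowest 2 values of Lss (26.69 and 21.98 CPM), Insig1 (49.3 and 51.7), Nsdhl (15.3 and 15.8), Abca1 (79.9 and 58.8) and Mylip (22.6 and 17.2). They were also the shallowest of that group, at 14638162 and 14118972 estimated counts against 16246183 to 26347581 in the others. The part of depth in these values was not tested. In null OB, replicate 5 had the lowest values of Hmgcs1 (65.4 CPM), Idi1 (25.0), Msmo1 (66.0), Fdps (62.8) and Fasn (35.5) and the highest of Scd2 (502) and Abcg1 (72.7). In null BMM, replicates 2, 3 and 4 had a mitochondrial share of 1.127% to 1.183% of counts and the others 0.712% to 0.875%. Those 3 libraries had the lowest Sqle (98.9 to 106 CPM, against 111 to 142) and Acly (165 to 180, against 198 to 219) and the highest Fdps (113 to 116, against 92.2 to 99.6) of their group. The main tests kept all libraries, and where a call changed, values are given for some of the libraries left out.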

How the data were processed

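Total RNA of 36 libraries was sequenced. The files the authors deposited list estimated counts and TPM per Ensembl transcript, per the file headers. The submitters' processing notes name kallisto and DESeq2, without versions, and the build GRCh38, although the transcript identifiers are those of mouse. Transcripts were summed per gene with GENCODE M21 (GRCm38): 97.6% of 88198 transcripts matched, and unmatched ones held 0.606% to 0.96% of a library's counts. Estimated counts were rounded and tested with edgeR 4.0.16 in R 4.3.3 (filterByExpr, TMM, robust quasi-likelihood F-test), with Benjamini-Hochberg adjustment over all genes tested and a threshold of 0.05. Each genotype comparison was fitted on its 12 libraries, RANK-L comparisons and their interaction on the 24 BMM and OC libraries, and comparisons with OB on all 36. The SE is the log2 fold change divided by the square root of F. The fits were tested on simulated data. Depth, from 14118972 to 26347581 estimated counts, limits precision mainly for Scd1.

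Alternatives were RLE scaling, no filter, a filter at a mean of 10 counts, DESeq2 1.42.0, limma 3.58.1 (voom with quality weights), a replicate block, a lowess offset (span 0.3) for length and GC content, a single fit of all libraries and leaving out each library. The comparisons fitted on all 36 libraries were not refitted with libraries left out. The offset with the block was added after seeing the data. The genes and lists were chosen with earlier results of these data known. All 33 genes were described, and of related genes those with the smallest p-values were named. The level of Mir324 was not analysed here, and no check of the genotype labels rests on it.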

Additional observations from a re-analysis of the deposited data

Results flagged for a closer look

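In 7 of 198 sets of 6 libraries (33 genes in 6 groups), a library stood apart from the other 5 by a gap above Dixon's 95% critical value, and chance flags about 1 in 20 such sets. Acly was at 146 CPM in null OC replicate 6 against 199 to 228 in the others, and Fasn at 32.3 CPM in the same library against 41.2 to 44.7. Insig1 was at 86.2 CPM in null BMM replicate 3 against 75.1 to 78.6, and at 74.2 CPM in WT OB replicate 1 against 61.3 to 65.7. Nsdhl was at 27.5 CPM in WT BMM replicate 3 against 24.8 to 25.2, Sc5d at 34.2 CPM in null BMM replicate 5 against 41.8 to 44.7, and Tm7sf2 at 7.30 CPM in WT OC replicate 2 against 5.99 to 6.22.

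Effects that differed between groups by an interaction test in edgeR were counted as well. The RANK-L response differed between genotypes in 25 of the 33 genes, where 51.4% of all genes passed. The genotype difference in OB departed from that in OC in 24 genes and from that in BMM in 23, where 55.3% and 45.8% of all genes passed.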

How the results depend on the processing

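Of 212 calls on the 33 genes over 10 comparisons, 178 held in every setting run and 34 were lost in at least 1. With the length and GC offset, genes called in OB fell from 4421 to 2023 and higher genes of the set from 4 to 0, and with offset and replicate block to 1759 and 1. Fdps, higher in WT OB than in WT BMM by 0.24, stood at -0.04 with the offset and at -0.05 with offset and block. For RANK-L in null cells, the 7 lower genes of the set became 3 without a filter, 3 with limma-voom and 4 with the replicate block, and the 1629 genes called became 1037 with limma-voom and 1038 with offset and block. The cause was not tested. Leaving out each library gave 811 to 2143 genes, 1 to 2 higher and 1 to 9 lower genes of the set for RANK-L in null cells. It gave 1 to 5 lower genes of the set in OB: 1 without WT OB replicate 5 and 5 without null OB replicate 1. Genes called for RANK-L in null cells were 811 without null BMM replicate 3, 841 without null BMM replicate 2, 949 without null BMM replicate 4 and 1046 without null OC replicate 3. Same-numbered libraries correlated at -0.13 to 0.10 in their deviations from group means. By pair of groups, 0 to 3 libraries correlated best with the library of their own number, with 3 between WT BMM and WT OC. Correlations near 0 cannot decide whether equal numbers mark a shared mouse or batch, because such sharing need not leave a trace in these deviations. With the replicate block 5648, 7564 and 4086 genes were called between genotypes in BMM, OC and OB, against 6248, 7946 and 4421 without it.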

Other observations

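Srebf1 has alternative starts, and the deposited transcript values allowed their shares to be described without a test. Srebf1-201, which encodes SREBP-1a, starts upstream of Srebf1-207, and other transcripts of the gene have further starts. On average Srebf1-201 held 62.4% of the gene's TPM in WT BMM and 77.7% in null BMM. It held 66.6% in WT OC and 78.9% in null OC, and 73.2% in WT OB and 76.3% in null OB. Srebf1-207 encodes SREBP-1c, the form raised by LXR. It held 13.2% in WT BMM (3.25% to 18.0% by library) and 7.78% in null BMM (1.72% to 14.96%). In the other groups it held 10.3% in WT OC, 11.6% in null OC, 11.96% in WT OB and 8.68% in null OB. The ranges of WT BMM and null BMM overlapped for both transcripts. These shares are estimates for overlapping transcripts.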
